A study of Mus musculus with 2 samples.

Results

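The 7 secreted proteases Adamts1, Adamts4, Adamts5, Adamts9, Adamts12, Adamts15 and Adamts17 were followed across the cell types of the mouse knee joint. They were chosen by gene symbol, and each symbol named 1 of the 32285 genes of the count matrix. They are 7 of the 19 ADAMTS protease genes that it holds. Single-cell RNA sequencing had been done on hindlimb knee joints, without skin and paws, of mouse pups at postnatal day 7. Pups of both sexes were wild type (WT) or lacked Col12a1 (Col12a1 KO), the gene of collagen XII, and digestion of the joints took 6 h with 4 mg/mL of collagenase II. The labels name 1 WT and 1 KO sample and describe 2 experiments, the first with 1 sample of each genotype and the other with 2 of each, but all share 1 matrix in which no label ties a cell to a genotype. The matrix was therefore treated as 1 sample, WT was not compared with KO, and no p-value is given. The Col12a1 deletion is described no further in the labels, and the sources used here do not say how many pups were pooled.

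ADAMTS proteases are zinc metalloproteases that carry thrombospondin repeats, are made as inactive precursors and act in the matrix around cells. Several of them cut aggrecan and versican, the large proteoglycans that bind hyaluronan in cartilage and in loose connective tissue, and loss of aggrecan to these enzymes is an early step of joint cartilage damage. Tissue inhibitor of metalloproteinases 3 (Timp3) blocks several of them, and the receptor Lrp1 takes some of them up from the matrix.

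In the mm10 build with the GENCODE M21 annotation, Adamts1 lies on the minus strand at chr16:85793827-85803113 and Adamts5 on the same strand at chr16:85856173-85901828. The gap of 53.059 kb between them holds 1 annotated gene. Adamts4 lies at chr1:171250421-171260637 on the plus strand. Adamts9 lies at chr6:92772699-92943492 on the minus strand and overlaps A730049H05Rik, Gm15737 and 9530026P05Rik on the plus strand. Adamts12 lies at chr15:11064790-11349231 on the plus strand. Adamts15 lies at chr9:30899155-30922452 on the minus strand, and Adamts17 at chr7:66839735-67153171 on the plus strand. The sources used here do not say whether strand was used in counting, and reads of overlapping genes on opposite strands may not have been kept apart.

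Promoter sequence from RefSeq (GRCm38.p6) was found for 4 of the 7 genes. Those of Adamts1, found in many classes, and of Adamts9, with its peak in mast cell-like cells, are shown because the patterns of these genes differed. Each line gives the 250 bases before the RefSeq start, 5′ to 3′ on the gene's own strand, with matches to the searched motifs in capitals, and RefSeq starts can differ from the GENCODE ends given above.
Adamts1 promoter, chr16:85803114-85803363, minus strand: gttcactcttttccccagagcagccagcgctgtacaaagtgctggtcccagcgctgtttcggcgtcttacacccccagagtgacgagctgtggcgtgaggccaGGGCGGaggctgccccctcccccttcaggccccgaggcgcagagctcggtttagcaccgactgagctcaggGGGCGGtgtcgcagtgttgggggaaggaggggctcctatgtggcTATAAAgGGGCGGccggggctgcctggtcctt
Adamts9 promoter, chr6:92943535-92943784, minus strand: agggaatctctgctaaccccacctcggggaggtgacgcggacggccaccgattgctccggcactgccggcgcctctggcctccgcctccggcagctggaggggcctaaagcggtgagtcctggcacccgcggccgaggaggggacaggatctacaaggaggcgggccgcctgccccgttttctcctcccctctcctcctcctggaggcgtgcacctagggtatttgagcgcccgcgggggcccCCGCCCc
Windows from 250 bases before to 50 bases after the start were searched on both strands for the TATA box (letters TATAAA), the AP-1 site (letters TGACTCA), the cAMP response element (letters TGACGTCA), the GATA site (letters AGATAA) and the GC box (letters GGGCGG). The Adamts1 window held a TATA box that begins 32 bases before the start and GC boxes that begin 147, 76 and 25 bases before it, and none of these overlap. The Adamts9 window held 1 GC box, read on the other strand, 7 bases before the start, and none of the other motifs. The Adamts12 and Adamts17 windows held none of the 5 motifs. Among 32851 windows of the same length, 13.6% held the TATA box, 35.7% the GC box, 5.20% the AP-1 site, 1.79% the cAMP response element and 11.2% the GATA site. A match is a run of letters and was not tied to any factor.

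The matrix held 24203 barcodes and 257619292 UMIs (unique molecular identifiers, each a counted transcript end). Requiring 500 genes and 1000 UMIs or more per cell, with mitochondrial UMIs at 10% or less, left 15174 cells, and Scrublet removed 4 of these as doublets, so 15170 cells with 215857188 UMIs were used. Scrublet marked 0.0419% and 0.0125% of the cells of the sets, too few to have worked, and doublets were in effect not removed. Barcodes end in 1 or 2, which gives set 1 (7157 cells, median 10959 UMIs) and set 2 (8013 cells, median 9623 UMIs). What the sets are is not known: a set may be a genotype, an experiment or a mixture, so likeness between sets is not likeness between mice, and a difference between them may be one of genotype. The sets shared 14 barcodes among the cells used. Values below are CPM, a gene's UMIs over all UMIs of the summed cells of a class on the usual scale, with set 1 and then set 2 beside them. Since 3' ends were counted, levels are compared within a gene and not between genes. Intervals are exact 95% Poisson intervals and cover counting error, not the spread between mice.

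Cells were clustered without the ADAMTS genes, and clusters were named from markers, so every class name below means cells like that type. The classes were fibroblast-like (3523 cells), chondrocyte-like (1417), muscle progenitor-like (1290), tenocyte-like or ligament-like (986), osteoblast-like (329), skeletal myofibre-like (283), endothelial-like (243), synovial lining-like (156), pericyte-like or smooth muscle-like (109, pericyte-like below) and Schwann-like (100). Mast cell-like cells (125) were led by Cma1, Mcpt4, Tpsb2 and Cpa3, and their marker Cpa3 stood at 8359 CPM. Neutrophil-like cells, erythroid-like cells and B cell-like cells together numbered 4493 and served as the background of free RNA. There the 7 genes stood between 0.307 CPM (Adamts15) and 9.78 CPM (Adamts5). This pool was uneven. Adamts5 stood at 0.847 CPM in the neutrophil-like cluster led by Retnlg and at 32.2 CPM in that led by Slc2a3. In the erythroid-like cluster led by Hbb-bt it stood at 40.5 CPM. Adamts1 stood at 0.847, 14.6 and 39.2 CPM in these clusters, and Adamts12 at 0.847, 15.4 and 14.1 CPM. Intervals of ratios to the pool do not cover this spread. A further 4 clusters, 1180 cells, had no name.

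The 7 genes fell into a few patterns. Fibroblast-like cells held the largest share of the UMIs of 6 genes, from 40.1% for Adamts17 to 76.4% for Adamts5, and endothelial-like cells the largest share of Adamts9, 24.7%. Class size enters these shares, since fibroblast-like cells held 64314138 of all 215857188 UMIs used, and endothelial-like cells 6803580. In CPM, Adamts17 in fibroblast-like cells was 1.02-fold the other non-blood classes pooled. In CPM, pericyte-like cells were highest for Adamts1, Adamts4, Adamts12, Adamts15 and Adamts17, fibroblast-like cells for Adamts5 and mast cell-like cells for Adamts9. These classes were highest in each barcode set. A class level averages over clusters, and for some genes a fibroblast-like cluster stood within the interval of pericyte-like cells. For Adamts1 the cluster led by Brinp3 stood at 192 CPM (pericyte-like interval 180 to 231). The cluster led by Abca8a stood at 165 CPM for Adamts12 (149 to 196) and at 19.4 CPM for Adamts15 (18.0 to 36.8).

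**Figure D1:**
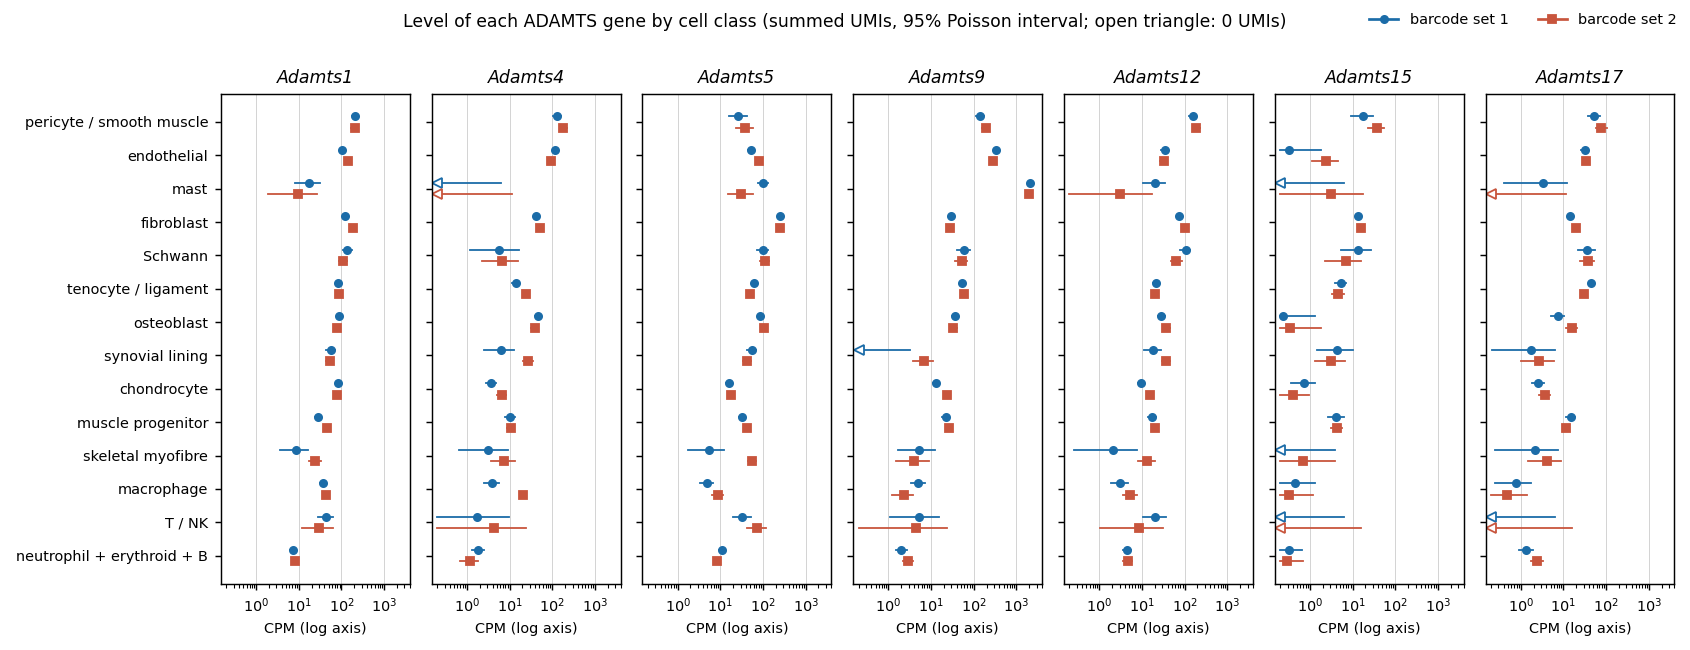
Level of each gene (CPM, log axis) in 13 cell classes and in the pooled blood classes (neutrophil-like, erythroid-like, B cell-like), by barcode set, with 95% Poisson intervals and open triangles at 0 UMIs. Adamts9 stands at 2036 and 1982 CPM in mast cell-like cells, and Adamts5 at 252 and 253 CPM in fibroblast-like cells.

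Adamts1 cuts versican and aggrecan, and its class level stood above the pooled blood background in every non-blood class. Skeletal myofibre-like cells, at 18.1 CPM, were uneven. Their cluster of 43 cells led by Gm29570 stood at 94.5 CPM. That of 240 cells led by Mylpf stood at 7.08 CPM, below the background. Within the background, the Hbb-bt cluster stood at 39.2 CPM. Pericyte-like cells stood at 205 CPM (205 in each set, 258 UMIs). Fibroblast-like cells stood at 154 CPM (122 and 184 CPM in sets 1 and 2). Endothelial-like cells (124 CPM) and Schwann-like cells (122 CPM) did not differ beyond counting error, nor did tenocyte-like (84.8 CPM), osteoblast-like (83.6 CPM) and chondrocyte-like cells (81.3 CPM). Muscle progenitor-like cells and macrophage-like cells followed at 40.1 and 39.9 CPM. The blood background stood at 7.63 CPM (7.16 and 8.22 CPM), and the level of chondrocyte-like cells was 10.7-fold that (9.44 to 12.1).

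Adamts4 is an aggrecanase. Pericyte-like cells stood at 155 CPM (132 and 182 CPM in sets 1 and 2) and endothelial-like cells at 105 CPM (117 and 94.7 CPM). Fibroblast-like cells (46.5 CPM) and osteoblast-like cells (43.0 CPM) did not differ beyond counting error. Chondrocyte-like cells stood at 4.94 CPM, 3.21-fold the blood background (2.35 to 4.43), whose Hbb-bt cluster stood at 8.65 CPM. Schwann-like cells stood at 6.33 CPM from 8 UMIs. Mast cell-like cells had 0 UMIs of Adamts4 in 905296, which allows a level of up to 3.31 CPM. Macrophage-like cells differed between sets (3.80 and 20.6 CPM). In their larger cluster, led by Ccl4, Ifnb1 and Ccl3, the summed level of the inflammatory response list was 18042 and 26978 CPM, and its part in the difference was not tested.

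Adamts5, the main aggrecanase of mouse cartilage in models of joint damage, was highest in fibroblast-like cells, at 253 CPM (252 and 253 CPM in sets 1 and 2). This was 2.42-fold the level of Schwann-like cells (104 CPM), the next class (interval 2.04 to 2.90). Osteoblast-like cells stood at 94.1 CPM, endothelial-like cells at 67.3 CPM and tenocyte-like cells at 55.9 CPM. Chondrocyte-like cells stood at 16.6 CPM (15.8 and 17.6 CPM), against 9.78 CPM in the blood background, a ratio of 1.69 (1.48 to 1.95). The Slc2a3 and Hbb-bt clusters of that background stood higher than chondrocyte-like cells, at 32.2 and 40.5 CPM. Pericyte-like cells, at 31.7 CPM, did not differ from skeletal myofibre-like cells (35.5 CPM) beyond counting error.

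Some Adamts5 levels rested on 1 set or 1 cluster. Mast cell-like cells stood at 76.2 CPM (101 and 31.2 CPM). Their fibroblast markers went the same way, with Pdgfra at 115 and 15.6 CPM, Dpt at 70.1 and 15.6 CPM and Col3a1 at 1022 and 412 CPM, and their part in the Adamts5 level was not tested. Skeletal myofibre-like cells stood at 5.30 and 54.7 CPM in sets 1 and 2. Within them a cluster of 43 cells, led by Gm29570, Myl2 and Ccl21a, stood at 182 CPM and carried Dpt at 417 CPM and Col3a1 at 13977 CPM. The cluster of 240 cells led by Mylpf, Myl1 and Tnnc2 stood at 14.2 CPM, with Dpt at 1.89 CPM and Col3a1 at 140 CPM. The part of fibroblast RNA in these levels was not tested.

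Adamts9, a versican-cutting protease, had its peak outside the fibroblast-like, chondrocyte-like, tenocyte-like and osteoblast-like classes. Mast cell-like cells stood at 2017 CPM (1926 to 2112), and the sets were alike (2036 and 1982 CPM). Endothelial-like cells came next at 311 CPM (339 and 288 CPM), and mast cell-like cells stood 6.49-fold above them (6.09 to 6.91). Pericyte-like cells stood at 166 CPM (142 and 194 CPM). Tenocyte-like cells (56.1 CPM) and Schwann-like cells (54.6 CPM) did not differ beyond counting error, and fibroblast-like cells stood at 29.1 CPM. Synovial lining-like cells stood at 4.51 CPM, with 0 UMIs in set 1 and 15 in set 2. In mast cell-like cells the endothelial marker Cdh5 was at 0 UMIs and Pecam1 at 14.4 CPM, and the pericyte marker Rgs5 was at 1.10 CPM. The 3 genes that overlap Adamts9 on the other strand stood in mast cell-like cells at 77.3 CPM (9530026P05Rik), 47.5 CPM (A730049H05Rik) and 18.8 CPM (Gm15737).

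Adamts15, another versican-cutting protease, had the fewest UMIs, 1258 in all. Pericyte-like cells stood at 26.2 CPM from 33 UMIs (17.6 and 36.4 CPM in sets 1 and 2), and fibroblast-like cells at 14.9 CPM (13.7 and 16.0 CPM). Schwann-like cells stood at 9.5 CPM from 12 UMIs, and from fibroblast-like cells down no class differed from its neighbour in the order beyond counting error. Osteoblast-like cells had 2 UMIs and chondrocyte-like cells 16, with 0.585 CPM against 0.307 CPM in the blood background, an interval of the ratio that holds 1 (0.846 to 4.41).

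Adamts12, which binds and cuts cartilage oligomeric matrix protein (Comp), was highest in pericyte-like cells, at 171 CPM (155 and 191 CPM in sets 1 and 2). Fibroblast-like cells stood at 88.2 CPM (75.7 and 100.0 CPM) and Schwann-like cells at 81.5 CPM (106 and 64.1 CPM), with no difference beyond counting error. Endothelial-like, osteoblast-like and synovial lining-like cells stood between 30.7 and 33.1 CPM. Chondrocyte-like cells, the class with the highest level of Comp itself (1931 CPM), stood at 12.3 CPM, 2.70-fold the blood background (2.25 to 3.26). The Slc2a3 and Hbb-bt clusters of that background stood at 15.4 and 14.1 CPM.

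Adamts17, whose human gene is mutated in a Weill-Marchesani-like disorder of short stature and lens defects, was highest in pericyte-like cells at 64.3 CPM (52.7 and 78.0 CPM). Tenocyte-like cells stood at 37.9 CPM (44.6 and 31.2 CPM), Schwann-like cells at 36.4 CPM and endothelial-like cells at 33.1 CPM. Neighbours among these last 3 did not differ beyond counting error. Fibroblast-like cells stood at 17.3 CPM and chondrocyte-like cells at 3.07 CPM, against 1.82 CPM in the blood background, with a ratio whose interval held 1 in set 2. The Hbb-bt cluster of that background stood at 11.4 CPM.

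Each of the 10 named non-blood classes was then set against the other 9 pooled, over all genes. A gene was called higher or lower where the class and the pool held at least 100 UMIs together, the ratio of CPM was at least 2 or at most 0.5, its exact 95% interval left out 1 and both sets went the same way. Of 70 pairs of a gene and a class, 14 were called higher, 30 lower and 26 neither. The share of all 15446 tested genes that the same rule called is given beside each count.

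Pericyte-like cells, a class that may hold pericytes, smooth muscle cells or both, had 5 of the 7 genes called higher, against 11.1% of all genes. Their cluster was led by Tagln, Myh11, Myl9, Acta2 and Rgs5 and held 84.0% of all Myh11 UMIs. Whether the calls belong to 1 of these cell types was not tested. Adamts4 was 4.80-fold the pool (4.14 to 5.54), Adamts9 3.92-fold (3.40 to 4.50), Adamts17 3.86-fold (3.05 to 4.82), Adamts12 3.42-fold (2.97 to 3.92) and Adamts15 3.31-fold (2.26 to 4.67). Adamts1, at 1.87-fold, was not called. Adamts5 was called lower, 4.25-fold below the pool, against 10.6% of all genes. The median log2 ratio of the 7 genes was 1.77, and of all genes -0.01. These 6 calls held in all 16 alternative settings.

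Endothelial-like cells, the lining of vessels, had 3 genes called higher, against 13.6% of all genes, and 2 lower, against 18.6%. Adamts9 was 10.2-fold the pool (9.67 to 10.7), and 11.5-fold and 9.17-fold in the sets. Adamts4 was 3.51-fold the pool (3.24 to 3.80). Adamts17 was 2.03-fold, a call that held in 5 of 16 alternatives, with ratios down to 1.58. Adamts5 was 2.04-fold below the pool, a call that held in 11 of 16, and Adamts15 5.71-fold below it. All 9 pericyte markers had UMIs in endothelial-like cells and summed to 1872 CPM (1977 and 1788 CPM in the sets), against sums of 19712 CPM (pericyte-like cells) and 86.0 CPM (fibroblast-like cells). Of these, Rgs5 stood at 1030 CPM in endothelial-like and 4097 CPM in pericyte-like cells. In the same order Acta2 stood at 230 and 7653 CPM, Tagln at 110 and 5125 CPM and Myh11 at 17.5 and 1219 CPM. Notch3 stood at 72.5 and 596 CPM, Abcc9 at 148 and 474 CPM and Kcnj8 at 65.1 and 192 CPM. Mcam stood at 172 and 282 CPM and Higd1b at 26.0 and 73.0 CPM. Pericyte-like cells are the highest class for Adamts4 and Adamts17, and the part of their RNA in the endothelial-like levels was not tested.

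Fibroblast-like cells had 4 genes called higher, against 7.19% of all genes, and none of the 7 lower, against 18.9% of all genes. Adamts5 was 5.81-fold the pool (5.61 to 6.03), Adamts15 5.12-fold (4.45 to 5.92) and Adamts12 3.85-fold (3.65 to 4.05). Adamts12 was 1.94-fold, and lost the call, where the other classes were weighted equally. Adamts4 was 2.00-fold the pool, a call that held in 6 of 16 alternatives, with ratios down to 1.13. Adamts1 was just under the threshold at 1.99-fold (1.56-fold and 2.41-fold in the sets), and was called higher in 9 of 16 alternatives. The median log2 ratio was 1.00 over the 7 genes and -0.22 over all genes.

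Schwann-like cells, which wrap nerve fibres, had 1 gene called higher, Adamts17 (2.16-fold), against 14.0% of all genes, and 1 lower, Adamts4 (5.29-fold below the pool), against 9.31%. Tenocyte-like or ligament-like cells likewise had Adamts17 called higher, against 4.38% of all genes. It was 2.67-fold the pool, at 3.72-fold and 1.93-fold in the sets, and the call held in 7 of 16 alternatives, with ratios down to 0.840. Their 2 genes called lower, against 13.9% of all genes, were Adamts12 and Adamts5, 2.65-fold and 2.59-fold below the pool. Osteoblast-like cells had none of the 7 called higher, against 5.63% of all genes, and 1 lower, Adamts15 with 2 UMIs, against 15.5%. Adamts17, at 0.623 of the pool there, was not called, but across 15 alternatives its ratio ran from 0.446 to 3.31, and it was called higher in 6 and lower in 2. In each of those 6 the higher call of Adamts17 in tenocyte-like cells was lost, and 1 of them differed only in keeping the 4 cells called as doublets. Whether tenocyte-like or osteoblast-like cells had the higher call of Adamts17 thus differed between settings.

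Chondrocyte-like cells, which make aggrecan, had none of the 7 called higher, against 7.83% of all genes, and 6 lower, against 24.3%. Adamts15 was 16.7-fold below the pool, Adamts5 9.67-fold, Adamts4 8.03-fold, Adamts17 6.57-fold, Adamts12 4.88-fold and Adamts9 2.83-fold. Adamts1, at 0.698 of the pool, was not called. The median log2 ratio was -2.72 over the 7 genes and -0.26 over all genes. Of the cluster led by Matn1 and Snorc and the cluster led by Msmp, Cytl1 and Prg4, the first was 1.55-fold higher in Adamts1 (1.42 to 1.70), with 97.1 against 62.6 CPM. For the other 6 genes the interval of the ratio between these clusters held 1.

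The remaining non-blood classes had genes on the low side alone. Synovial lining-like cells, the surface fibroblasts that secrete lubricin, had none called higher, against 8.37% of all genes, and 5 lower, against 18.8%. Adamts9 was 9.80-fold and Adamts17 7.23-fold below the pool there, and the lower call of Adamts1 held in 10 of 16 alternatives. Muscle progenitor-like cells, which include a cluster led by Myog and Actc1, had none called higher, against 15.1% of all genes, and 5 lower, against 21.8%. Their lower call of Adamts15 held in 7 of 16 alternatives. Skeletal myofibre-like cells had none called higher, against 7.92%, and all 7 lower, against 55.2%. The median log2 ratio in this class was -2.55 over the 7 genes and -1.74 over all genes.

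Mast cell-like cells were compared with the pooled non-blood classes after their Adamts9 level had been seen, as a description. Adamts9 was 46.6-fold the pool (44.2 to 49.1), at 47.7-fold and 45.1-fold in the sets. It was the single gene of the 7 called higher, against 8.57% of 15514 genes tested, and 5 were called lower, against 27.2%. Adamts1 was 7.67-fold and Adamts12 3.56-fold below the pool, and Adamts5, at 0.569 of the pool, was not called. The median log2 ratio of all genes in this class was -0.88.

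**Figure D2:**
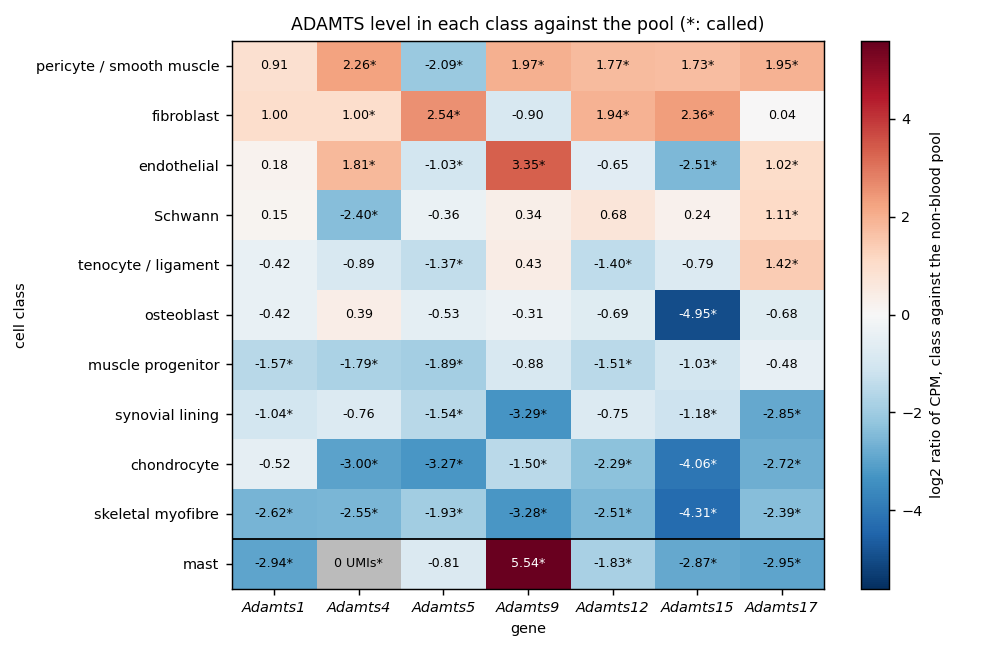
Log2 ratio of CPM of each gene in each class against the other non-blood classes pooled, with an asterisk where the size rule called it, and mast cell-like cells against the pool in the last row. Pericyte-like cells are above the pool for all but Adamts5, and chondrocyte-like cells are below it throughout (-0.52 to -4.06). Adamts1 was not called in either class. The extreme is Adamts9 in mast cell-like cells (5.54).

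Within the fibroblast-like class the order of the clusters differed from gene to gene. Adamts4 stood at 21 CPM in the cluster led by Abca8a, Ebf2 and Cd248 (1362 cells), 45.3 CPM in that led by Brinp3, Tnfsf9 and Gfpt2 (1110 cells) and 69.9 CPM in that led by Cxcl5, Saa3 and Csf3 (1051 cells). Adamts12 ran the other way, with 165 CPM, 58.1 CPM and 37.3 CPM, and so did Adamts17, with 31.0 CPM, 14.8 CPM and 6.64 CPM. The Cxcl5 cluster was 3.33-fold the Abca8a cluster in Adamts4 (3.01 to 3.68). The Abca8a cluster was 4.43-fold the Cxcl5 cluster in Adamts12 (4.13 to 4.76) and 4.66-fold in Adamts17 (3.94 to 5.53). Both sets had these orders, with Adamts4 at 18.0, 37.4 and 56.8 CPM in set 1 and 23.0, 50.5 and 90.7 CPM in set 2.

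The other genes varied less between these clusters. Adamts5 stood at 306, 238 and 215 CPM in the same order, Adamts15 at 19.4, 14.3 and 11.2 CPM, Adamts1 at 148, 192 and 136 CPM, and Adamts9 between 26.7 and 33.1 CPM. The 15 genes of the inflammatory response list (Ccl2, Cxcl1 and others) summed to 2852 CPM in the Abca8a cluster, 28161 CPM in the Brinp3 cluster and 45707 CPM in the Cxcl5 cluster. The 16 immediate early and heat shock genes summed to 14402, 4569 and 4406 CPM. Median depth was 15230.5, 10525.5 and 21099 UMIs per cell. The part of these lists and of depth in the differences was not tested. The Cxcl5 cluster was the one named least firmly as fibroblast-like, with a median marker log2 fold of 1.00, and without it Adamts4 was 1.32-fold the pool and not called.

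**Figure D3:**
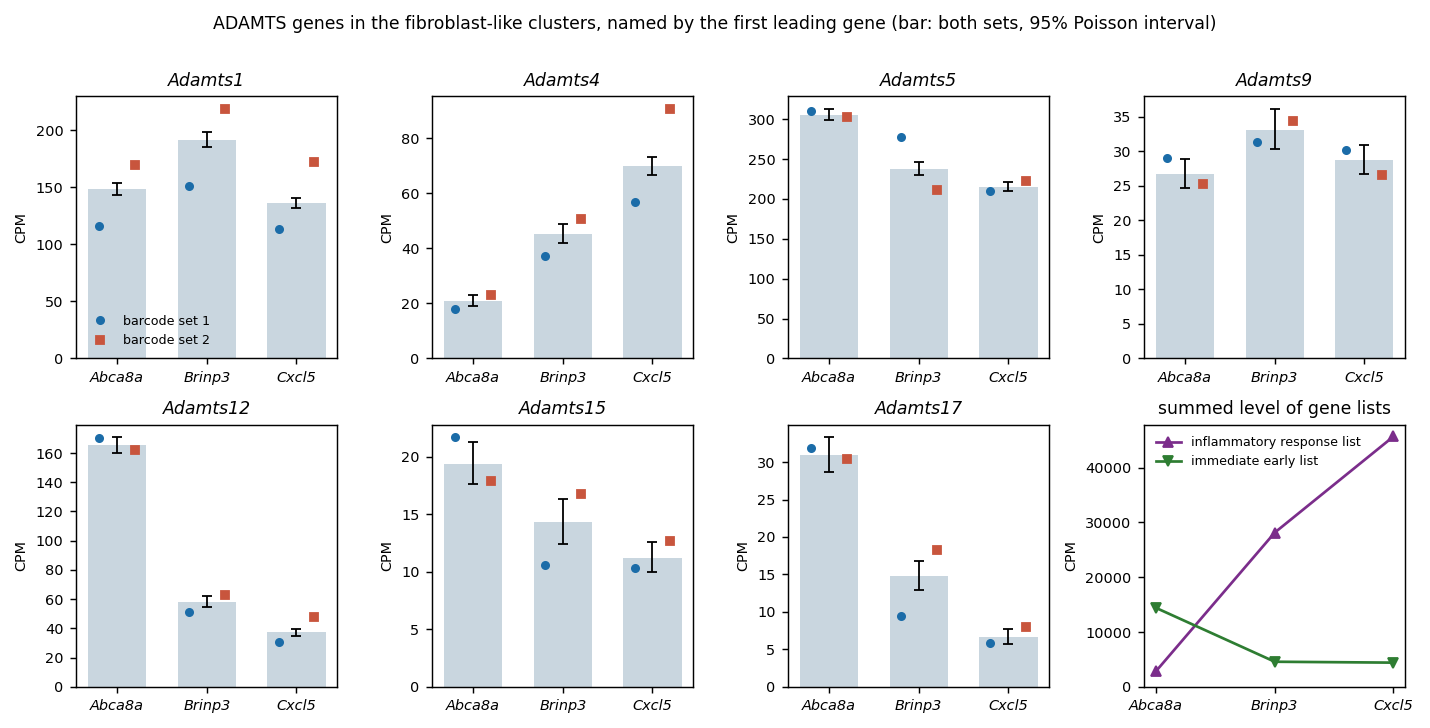
Level of each gene (CPM) in the 3 fibroblast-like clusters, labelled by the leading gene, as bars with 95% Poisson intervals for both sets and points for each set, and the summed CPM of 2 gene lists in the last panel. Adamts4 goes from 21 to 69.9 CPM while Adamts12 goes from 165 to 37.3 CPM.

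Shares of cells with a UMI were compared at a fixed depth. Each cell was thinned to 2000 UMIs, which left out 385 shallower cells of the blood background, 19 mast cell-like and 18 fibroblast-like cells. Of 106 mast cell-like cells 74.5% had a UMI of Adamts9 (exact binomial interval 65.1 to 82.5%), against 0.243% of 4108 blood background cells. Of 227 endothelial-like cells 41.9% had one (35.4 to 48.6%). Of 3505 fibroblast-like cells 30.8% had a UMI of Adamts5 (29.2 to 32.3%), against 0.657% of the background. Of 103 pericyte-like cells 24.3% had Adamts1, 21.4% Adamts4 and 21.4% Adamts12. Unthinned, the Adamts9 shares were 83.2% in mast cell-like cells, with a median of 4704 UMIs per cell, and 0.979% in the background, with a median of 5636 UMIs. In chondrocyte-like cells 13.3% had Adamts1, but 0.780% Adamts4 and 2.48% Adamts5.

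In some classes 2 or more of the genes were often seen in 1 cell. At 2000 UMIs, 68.9% of pericyte-like cells had a UMI of at least 1 of the 7 genes, 32% of at least 2 and 10.7% of at least 3. For endothelial-like cells these shares were 62.6%, 26.0% and 8.37%, and for fibroblast-like cells 59.5%, 21.1% and 4.05%. Mast cell-like cells reached 79.2% for at least 1 gene and 11.3% for at least 2. At least 2 were seen in 18% of Schwann-like, 9.97% of osteoblast-like, 6.34% of tenocyte-like and 5.77% of synovial lining-like cells. For muscle progenitor-like, skeletal myofibre-like and chondrocyte-like cells this share was 2.73%, 1.92% and 1.77%. The background was at 1.97%, 0.292% and 0.0730%. No share expected from the single genes was set beside these, and doublets were in effect not removed.

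**Figure D4:**
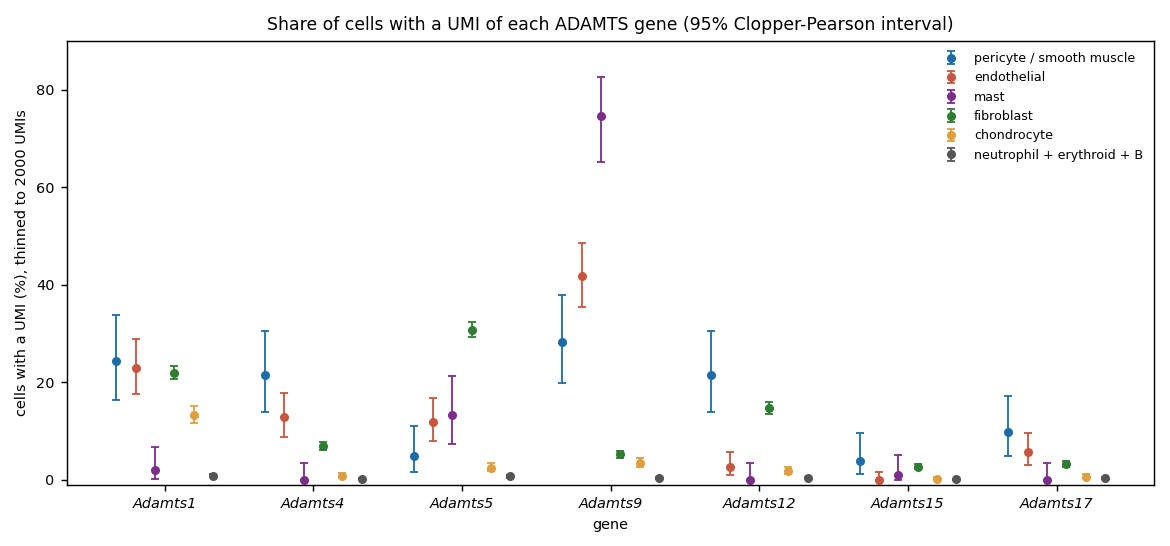
Share of cells with a UMI of each gene (%), after thinning each cell to 2000 UMIs, in 5 classes and in the pooled blood classes (neutrophil-like, erythroid-like, B cell-like), with 95% Clopper-Pearson intervals. Mast cell-like cells reach 74.5% for Adamts9, and the pooled blood classes stay at or below 0.779% for every gene.

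Levels were then compared across the 32 clusters of at least 50 cells, as Pearson's r of log2(CPM + 10). These values are descriptions, since the clusters share libraries and free RNA. Adamts12 had r = 0.86 with Adamts1, 0.85 with Adamts15, 0.84 with Adamts17 and 0.83 with Adamts5. Adamts9 had r between 0.40 and 0.55 with the other 6. The neighbours Adamts1 and Adamts5 on chromosome 16 had r = 0.79.

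For each gene the 3 most alike of 10993 genes were taken by the lower of the r values of the sets, and 2 of them are given for Adamts4. Adamts1 was most like Lamb2 (a laminin chain of basement membranes), Rhbdf1 and Tnks1bp1, with lower r values of 0.92 to 0.93. Adamts4 was most like the transcription factor Tbx3 and Pdgfrb (a growth factor receptor of pericytes and fibroblasts). Adamts5 was most like Fstl1, Col3a1 and Fbn1, genes of loose connective tissue matrix, with r = 0.90 for Fbn1 over both sets. Adamts9 was most like Gnai1, S1pr3 (a receptor of the lipid sphingosine 1-phosphate) and Map4k3. Adamts12 was most like Cygb, Rarres2 and Rbms3, Adamts15 like Mtcl1, Lgi2 and Naalad2, and Adamts17 like Afap1l2, Tgfb3 (a growth factor of the TGF-beta family) and Nr2f2. With a pseudocount of 1 CPM in place of 10 none of the 3 genes of Adamts15 was kept, and 1 of 3 each for Adamts12 and Adamts17.

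Of all 19 ADAMTS proteases 18 reached 100 UMIs, the exception being Adamts13, named for that reason alone. Of these 18, pericyte-like cells had 7 called higher (11.1% of all genes) and 3 lower (10.6%). Fibroblast-like cells had 6 higher (7.19%) and 2 lower (18.9%), and chondrocyte-like cells 0 higher (7.83%) and 15 lower (24.3%). These counts include the 7 genes described above. Adamts16 was highest in synovial lining-like cells, at 254 CPM against 30.1 CPM in pericyte-like cells, the next class, and was 48.1-fold the pool (43.6 to 53.1). Adamts20 was highest in Schwann-like cells, at 116 CPM and 27.2-fold the pool (22.6 to 32.6). Adamts2, a procollagen N-propeptidase, was highest in fibroblast-like cells at 172 CPM, where Adamts19 stood at 64.4 CPM. Of the ADAMTS-like genes, whose products lack a protease domain, Adamtsl1 was highest in synovial lining-like cells (742 CPM) and Thsd4 in muscle progenitor-like cells (119 CPM).

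The list of 14 ADAMTS substrate genes, of which 12 were tested, divided between classes. Pericyte-like cells had 10 of the 12 called lower (10.6% of all genes) and none higher (11.1%). Chondrocyte-like cells had 5 lower (24.3%) and 4 higher (7.83%), and fibroblast-like cells 4 lower (18.9%) and 4 higher (7.19%). Aggrecan (Acan) stood at 1870 CPM in chondrocyte-like cells, 29.0-fold the pool, and at 10.9 CPM in fibroblast-like cells. Versican (Vcan) stood at 632 CPM in fibroblast-like cells, 6.18-fold the pool, and at 47.9 CPM in chondrocyte-like cells. Fbn1, the gene of fibrillin-1, was 10.1-fold the pool in fibroblast-like cells. Lubricin (Prg4) was highest in synovial lining-like cells, at 14437 CPM. Acan was among the markers that named chondrocyte-like cells, and Prg4 among those that named synovial lining-like cells. Their high levels there, and the higher call of Acan, thus follow in part from the naming.

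The 13 genes that control ADAMTS proteins were chosen as inhibitors, activating proteases, uptake receptors and binding partners. Furin, a protease that cuts off the precursor peptide of many secreted enzymes, stood at 4649 CPM in mast cell-like cells (4055 and 5735 CPM in the sets), and was 71.4-fold the pool (68.9 to 74.1). It was the single gene of the 13 called higher there, against 8.57% of all genes, and 9 were called lower, against 27.2%. The inhibitor Timp3 stood at 5.52 CPM in mast cell-like cells, 60.4-fold below the pool. Timp3 was 2.92-fold the pool in chondrocyte-like cells and 2.08-fold below it in fibroblast-like cells, where Lrp1 was 2.09-fold the pool. In pericyte-like cells 6 of the 13 were called lower, against 10.6% of all genes, among them Timp1 (23.6-fold below the pool), Fbln2 (20.2-fold) and Timp2 (2.90-fold), and the median log2 ratio was -1.14. The 2 called higher, against 11.1%, were Mmp17 and Sdc1. Mmp17, a membrane protease known to activate Adamts4, stood at 21.4 CPM and 15.6-fold the pool (10.0 to 23.4), and Sdc1, a syndecan, at 136 CPM (176 and 88.4 CPM in the sets) and 4.66-fold the pool.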

How the data were processed

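The matrix was made by the authors with Cell Ranger 7.0.0 from 10x Genomics 3' v3 libraries of 2 merged experiments, per the labels' protocols, on mm10, per the submitters' processing notes. Its values are UMI counts per gene and cell, as deposited and not normalised, and the sources used here do not say if introns were included. Of 32285 gene IDs 32235 were found in GENCODE M21.

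Scrublet was run on each barcode set in scanpy 1.11.5. Counts were scaled to 10000 per cell and logged, and 2000 variable genes, 30 components (rounded to 4 decimals), 15 neighbours and Leiden clustering (leidenalg 0.10.2, resolution 1, seed 1) gave 33 clusters. The ADAMTS genes, all gene lists, collagens, mitochondrial, ribosomal, Xist and Y-linked genes (334 genes) were left out. A cluster took the name of the class with the highest mean marker log2 fold, on CPM + 10, if the median was at least 1 and 3 markers in at least 10% of cells reached 1. Genes named were all 7 proteases, other family genes with at least 100 UMIs, the 2 highest genes of each further list or those called in a class where a protease peaked, and the 3 most alike genes. Likeness needed 500 UMIs in each set. Some items are not reported here.

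The genes, lists and markers were chosen with earlier results of these data known. The mast cell-like comparison, the comparisons between clusters, the levels of overlapping genes and markers, and the comparison with the blood background were chosen after the data were seen. The size rule was tested on simulated data. Settings tried were the cell filters, doublet removal, resolution, components, clustering genes and seed, pool weighting, ratio and UMI thresholds, each set left out, and the thinning depth and pseudocount.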

Additional observations from a re-analysis of the deposited data

How the results depend on the processing

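Across 16 alternative settings the count of pairs called higher stayed between 10 and 16 (14 as reported) and that called lower between 20 and 32 (30 as reported). Of the 44 called pairs 27 kept their call in all 16, and 1 more, Adamts15 in osteoblast-like cells, in the 15 that gave it a value. None turned to the opposite call. The class with the highest level was the same for all 7 genes in all 13 alternatives that change cells or classes. The setting without the Cxcl5 cluster, the setting without the 5% of cells with the highest Scrublet score and the second clustering seed were added after the data were seen. Thinning to 1000 UMIs in place of 2000 lowered the share of cells with a UMI in the highest class to 13.8% from 24.3% for Adamts1, 10.1% from 21.4% for Adamts4, 18.3% from 30.8% for Adamts5, 59.2% from 74.5% for Adamts9 and 13.8% from 21.4% for Adamts12, as fewer UMIs per cell must. The shares of Adamts15 and Adamts17 at 1000 UMIs are not given here. With 15 principal components no cluster was named osteoblast-like, which left 9 classes. With a pseudocount of 1 CPM, 10 of the 21 most alike genes were the same, from 0 of 3 for Adamts15 to 2 of 3 for Adamts1, Adamts4, Adamts5 and Adamts9. Small classes limit precision: Adamts15 in pericyte-like cells rests on 33 UMIs, and no interval covers the spread between mice.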
